A study of Arabidopsis thaliana with 64 samples.

Results

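The RNA libraries of Arabidopsis thaliana seedlings that overexpress ELF3 of the grass Brachypodium distachyon (BdELF3-ox) were set against those of seedlings that overexpress the Arabidopsis ELF3 (ELF3-ox), matched by growth temperature. The comparison holds 7 of the 38 RNA libraries of the series: BdELF3-ox at 12 °C, 22 °C and 27 °C (replicates 1 and 3 at 27 °C), and ELF3-ox at 12 °C, 22 °C and 27 °C, with 1 library each. A further BdELF3-ox library at 27 °C (replicate 2) was left out because its root transcripts were low. All seedlings are given as Col-0 in the labels, were grown for 10 days under 8 h of light and 16 h of darkness, and were pooled, about 70 mg per tube. The labels give neither the promoter that drives the transgenes, nor whether the native ELF3 gene is intact in these lines, nor how many independent insertions each line name stands for. A line name may therefore stand for 1 clone, and a difference between the proteins cannot be told apart from a difference between insertions, transgene doses or fused tags (the ChIP samples were precipitated with an anti-Flag antibody for BdELF3-ox and an anti-HA antibody for ELF3-ox).

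ELF3 is the scaffold of the evening complex, in which it joins ELF4 and the DNA-binding protein LUX (or its close relative BOA) to repress target genes in the evening and at night. Its best known targets are the growth-promoting transcription factors PIF4 and PIF5 and the clock genes PRR7, PRR9, GI and LUX itself. In Arabidopsis ELF3 a polyglutamine stretch lies within a prion-like domain, and warmth weakens the repression by the complex; the question of the comparison is whether seedlings with the grass protein hold the same genes down, and whether they respond to warmth in the same way.

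The 7 libraries hold 8670228 to 20035179 counts assigned to genes, and 19538 loci were tested. Values are given as CPM, a library's counts of a gene over its scaled total, and fitted differences are log2, BdELF3-ox minus ELF3-ox. The replicates are separate libraries, and the labels do not say whether they come from separate sowings. The p-values rest on how far libraries of all lines depart from added terms for line, temperature and title number. Few groups hold repeat libraries, so this spread is not that of replicates alone. The summed CPM of 13 measured root marker genes was 189 to 420 in the 4 BdELF3-ox libraries and 217 to 440 in the 3 ELF3-ox libraries, with none of the 13 at 0 counts in any of them; in the library left out the sum was 62.4 CPM and 6 of the 13 were at 0. The sum of 6 seed storage genes was 1.90 to 7.39 CPM in BdELF3-ox and 3.97 to 18.3 CPM in ELF3-ox, and its part in the results was not tested. In seedlings sampled whole, fewer cells of a type and less RNA per cell cannot be told apart. The number that opens each sample title is 184 for both 12 °C libraries and for BdELF3-ox 27 °C replicate 3, 181 for BdELF3-ox at 22 °C and 27 °C replicate 1, and 177 for ELF3-ox at 22 °C and 27 °C. What that number stands for is not given, and only at 12 °C do both lines share it.

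Over the 3 temperatures no gene was called higher or lower in BdELF3-ox than in ELF3-ox (edgeR's quasi-likelihood test, Benjamini-Hochberg adjusted p under 0.05; background 0% in each direction). The smallest adjusted p was 0.580, 611 loci stayed under 0.05 before adjustment, and DESeq2 called 2 loci, both lower (JMJD5 and AT2G18540). The size of the differences gives the scale of this result. Among 12784 loci averaging 5 CPM or more over the 7 libraries, the median absolute log2 difference between the lines was 0.22 at 12 °C, 0.26 at 22 °C, 0.28 at 27 °C with BdELF3-ox replicate 1 and 0.35 with replicate 3. Between those BdELF3-ox replicates themselves, which share line and temperature, it was 0.34. Of these loci 1.72% were past 2-fold between the lines at 12 °C, 3.76% at 22 °C, and 3.90% and 8.29% at 27 °C with BdELF3-ox replicates 1 and 3. Between repeat libraries of a line at 27 °C the share was 6.81% in BdELF3-ox, 6.16% in Col-0, 6.98% in ELF3pro::ELF3-Q21 #7 and 12.6% in ELF3pro::ELF3-Q0 #15. In 3 of the 4 comparisons of the lines the share was thus below that of every repeat pair, and with BdELF3-ox replicate 3 it was within their range. The yardstick is unlike: each repeat pair crosses title numbers, as do the line pairs at 22 °C and 27 °C, while the 12 °C pair shares one.

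The evening complex targets were low in both lines compared with a mutant that lacks ELF3 function. Of 13 measured targets, 11 were at least 2-fold lower in BdELF3-ox than in the loss-of-function mutant elf3-1 at 22 °C, where 3.04% of all loci were, and 10 were in ELF3-ox, where 4.26% of all loci were. At 27 °C the number was 10 of 13 in BdELF3-ox replicate 1 (5.01% of all loci), 10 in replicate 3 (5.8% of all loci) and 10 in ELF3-ox (2.94% of all loci). All 13 lay below elf3-1 in each of these 5 libraries. Col-0 was also below elf3-1 in the sum of the 13 targets. At 22 °C the sum was 592 CPM in elf3-1, 213 in Col-0, 160 in BdELF3-ox and 174 in ELF3-ox. At 27 °C it was 653 CPM in elf3-1, 327 and 274 in Col-0, 209 and 201 in BdELF3-ox and 237 in ELF3-ox. The counts against elf3-1 thus do not set the overexpressors apart from Col-0. Against Col-0 at 22 °C, 1 of 13 was at least 2-fold lower in BdELF3-ox (0.962% of all loci) and 0 in ELF3-ox (0.978% of all loci), while 0 were at least 2-fold higher in BdELF3-ox (1.54% of all loci) and 2 in ELF3-ox (1.05% of all loci). At 27 °C, against Col-0 replicates 1 and 2, the number at least 2-fold lower was 1 and 1 in BdELF3-ox replicate 1 (1.28% and 4.63% of all loci), 1 and 1 in BdELF3-ox replicate 3 (4.99% and 1.56%), and 1 and 3 in ELF3-ox (2.63% and 5.1%). The median log2 difference of the 13 targets from Col-0 was -0.19 in BdELF3-ox and 0.06 in ELF3-ox at 22 °C. At 27 °C it was -0.64 and -0.38 in BdELF3-ox replicate 1, -0.44 and -0.33 in replicate 3, and -0.52 and -0.46 in ELF3-ox, while the medians against elf3-1 at that temperature ran from -2.58 to -2.16. The elf3-1 values and the Col-0 value at 22 °C come from 1 library each, so the counts are a description without a test.

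**Figure D1:**
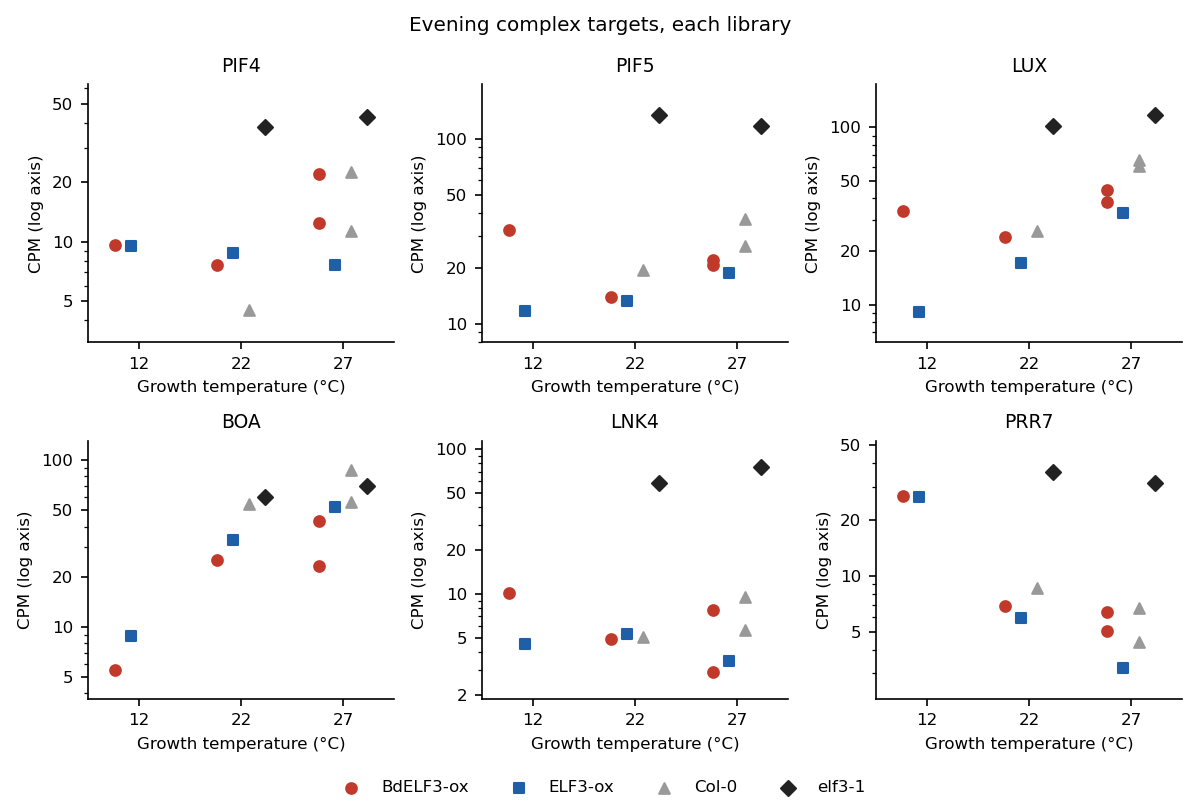
CPM (log axes) of 6 evening complex targets in each library at 12, 22 and 27 °C, with BdELF3-ox (red circles, replicates 1 and 3 at 27 °C), ELF3-ox (blue squares), Col-0 (grey triangles) and elf3-1 (black diamonds); each point is 1 library. At 22 and 27 °C, the temperatures with an elf3-1 library, both overexpressors lie well below elf3-1 for PIF4, PIF5, LUX, LNK4 and PRR7. The widest gap between the overexpressors is that of LUX at 12 °C, 33.8 CPM in BdELF3-ox and 9.09 CPM in ELF3-ox.

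PIF4, the basic helix-loop-helix factor that drives warm-induced stem elongation, had 9.68 CPM at 12 °C, 7.60 CPM at 22 °C and 12.5 and 22.1 CPM at 27 °C in BdELF3-ox, against 9.50, 8.74 and 7.60 CPM at the same temperatures in ELF3-ox. The elf3-1 libraries had 38 CPM at 22 °C and 43.0 CPM at 27 °C. At 12 °C and 22 °C the lines were close to each other, and at 27 °C both BdELF3-ox libraries were above ELF3-ox, between the Col-0 libraries there (11.4 and 22.5 CPM). The fitted difference over temperatures was 0.37 ± 0.38 (SE), with a 95% interval of -0.44 to 1.17.

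PIF5, its closest relative in this role, had 32.2 CPM at 12 °C, 14 CPM at 22 °C and 22.0 and 20.7 CPM at 27 °C in BdELF3-ox, against 11.6, 13.3 and 18.9 CPM in ELF3-ox. LUX, the DNA-binding member of the complex and a target of it, had 33.8, 24.0, 37.8 and 44.5 CPM in the BdELF3-ox libraries, against 9.09, 17.3 and 32.7 CPM in ELF3-ox. For both genes the largest gap was at 12 °C, and at 22 °C and 27 °C the lines lay closer to each other. The fitted difference at 12 °C was 1.47 ± 0.38 (SE) for PIF5 (edgeR adjusted p = 0.48) and 1.89 ± 0.38 for LUX (edgeR adjusted p = 0.14); DESeq2 called LUX there, with an adjusted p of 0.0109. Over temperatures PIF5 differed by 0.09 ± 0.36, and with a 12 °C library left out that value turned to -0.69 without the BdELF3-ox library and to -0.65 without the ELF3-ox library. LUX differed by 0.62 ± 0.31 over temperatures, and by -0.14 without the ELF3-ox 12 °C library. These fitted values are adjusted by the title number term, and their negative signs are not those of the single pairs. At 22 °C and 27 °C (replicates 1 and 3) the log2 differences of single pairs were 0.07, 0.21 and 0.13 for PIF5. For LUX they were 0.45, 0.20 and 0.43.

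BOA, the LUX relative that can take its place in the complex, went the other way. It had 5.55 CPM at 12 °C, 25.3 CPM at 22 °C and 43.1 and 23.4 CPM at 27 °C in BdELF3-ox, against 8.84, 33.3 and 52.2 CPM in ELF3-ox. BdELF3-ox was lower in 4 of 4 temperature-matched pairs, as were 8% of all loci; the pairs at 27 °C share their ELF3-ox library. At 12 °C and at 22 °C BdELF3-ox was the lowest of all libraries of that temperature (3 and 15 libraries), and at 27 °C its libraries ranked 1 and 3 from the lowest among 19, replicate 2 left out. The fitted difference was -0.77 ± 0.17 (SE; 95% interval -1.12 to -0.42; edgeR adjusted p = 0.65).

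The remaining targets held no call. GI, a clock and flowering regulator, had 3.59, 0.832, 1.62 and 1.86 CPM in BdELF3-ox, against 2.56, 3.79 and 0.691 CPM in ELF3-ox, in the order 12, 22 and 27 °C, and 16.3 and 27.1 CPM in elf3-1. PRR7, a morning repressor of the clock, had 26.7, 6.89, 6.37 and 5.03 CPM against 26.4, 5.91 and 3.23 CPM, so that both lines had about the same level at 12 °C. The median fitted difference of the 13 targets was -0.06 over temperatures, 0.69 at 12 °C, where 12 of 13 were above 0, beside 0.00 at 12 °C over all loci; no target passed the test at 12 °C (background 0.00512% in each direction). PRR9 did not reach the minimum level for testing.

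ELF3 itself had 8.32, 13.5, 13 and 12 CPM in BdELF3-ox, against 9.42, 37.2 and 35.1 CPM in ELF3-ox. Col-0 had 30.0 CPM at 22 °C and 22.4 and 17.2 CPM at 27 °C, and elf3-1 had 17.5 and 26.7 CPM. At 22 °C and 27 °C ELF3-ox was thus above the Col-0 libraries in tags at the native gene and BdELF3-ox was below them, while at 12 °C the lines were close. The libraries read the ends of transcripts, so a transgene with another terminator, or the grass coding sequence, need not count at this locus, and the values do not measure the level of either transgene. In single pairs the log2 difference was -0.16 at 12 °C, -1.39 at 22 °C, and -1.37 and -1.47 at 27 °C. The fitted difference, which is adjusted by the title number term, was -0.45 ± 0.24 (SE; edgeR adjusted p = 1). It thus lies far from the pairs at 22 °C and 27 °C. ELF4, the small partner of ELF3, had 52.1, 53.8, 49.6 and 49.6 CPM in BdELF3-ox, against 51.6, 62.6 and 83.2 CPM in ELF3-ox (-0.42 ± 0.20, edgeR adjusted p = 1).

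One gene separated the BdELF3-ox line from every other library, TBL4 (AT5G49340), of the TRICHOME BIREFRINGENCE-LIKE family, whose studied members add acetyl groups to cell wall polysaccharides. It had 3.59 CPM at 12 °C, 3.68 CPM at 22 °C and 4.40 and 2.98 CPM at 27 °C in BdELF3-ox, against 0, 0.101 and 0 CPM in ELF3-ox. The library left out had 3.63 CPM. The library of ELF3pro::BdELF3, which carries the grass gene under the ELF3 promoter, had 0 counts at 27 °C. All 5 BdELF3-ox libraries were above all 33 others, of which the highest had 0.935 CPM and 17 had no count. In counts, TBL4 had 170 in the 4 BdELF3-ox libraries and 2 in the 3 ELF3-ox libraries, a ratio of shares of 76.7. TBL4 was the only locus of the 19538 tested (0.00512%) above all 33 others, and it was chosen after its values were seen. No library outside BdELF3-ox reached the 1 CPM of the filter, so TBL4 was among the loci tested only through the line in which it was high; its values are a description, and no p is read from them.

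**Figure D2:**
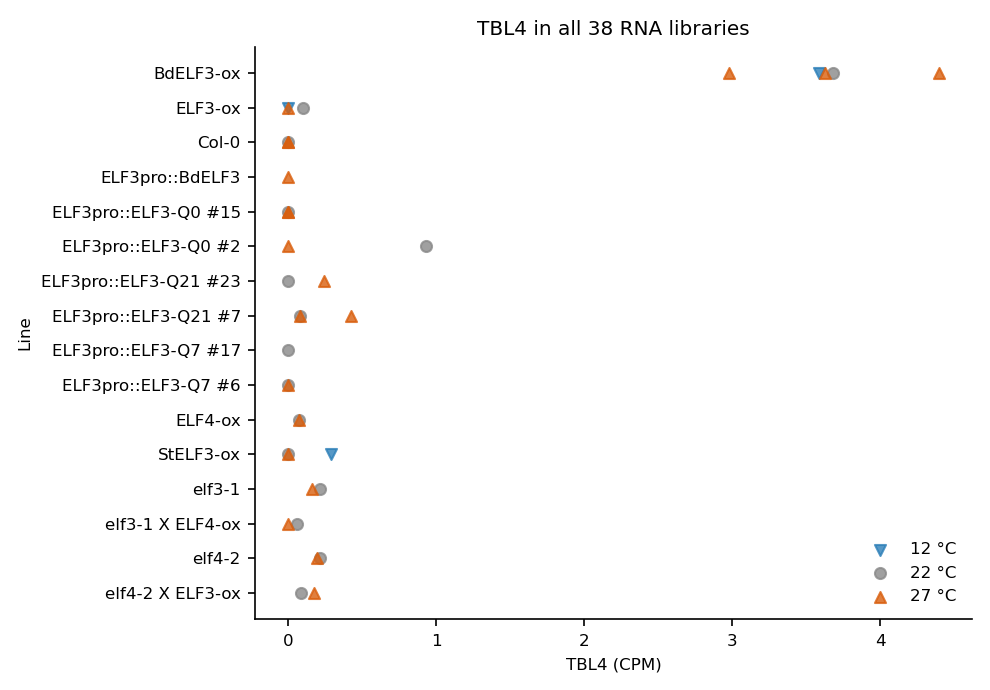
TBL4 in CPM in all 38 RNA libraries, 1 row per line and 1 point per library, coloured by growth temperature. The 5 BdELF3-ox points lie between 2.98 and 4.40 CPM and the highest of the other 33 is 0.935 CPM.

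No gene next to TBL4 separated the line from all other libraries. MYB111, a flavonol regulator on one side, had 0.677, 1.31, 0.926 and 0.683 CPM in BdELF3-ox, against 2.97, 1.77 and 0.615 CPM in ELF3-ox. AT5G49350, on the other side, had 5.89, 6.89, 5.21 and 3.79 CPM against 8.01, 2.78 and 0.999 CPM, higher in BdELF3-ox at 22 °C and 27 °C and lower at 12 °C. BXL1, a cell wall xylosidase next to it, had 207, 169, 171 and 238 CPM against 130, 104 and 308 CPM. In the opposite direction the only locus with all 5 BdELF3-ox libraries below all others was ADK (AT2G37250), an adenylate kinase, by a narrow margin: 35.9 to 37.4 CPM against 37.8 to 67.9 CPM in the other 33 (0.00512% of loci). Besides TBL4, 2 loci were at least 2-fold higher in BdELF3-ox in 4 of 4 pairs on the log2(CPM + 1) scale (3 loci in all, 0.0154%), and 0 were at least 2-fold lower. AT2G16005 had 3.59, 24.5, 11.8 and 21.7 CPM in BdELF3-ox, against 0.909, 10.2 and 4.15 CPM in ELF3-ox. AT2G01422, a non-coding RNA in the RefSeq table, had 4.47, 7.84, 9.84 and 7.89 CPM against 1.49, 1.01 and 3.00 CPM. The 3 ELF3-ox libraries together with the 2 from elf4-2 X ELF3-ox had no locus above or below all others.

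JMJD5 (also JMJ30), an evening-expressed histone demethylase that acts in the clock, had the smallest p over temperatures among loci averaging 5 CPM or more. It had 16.0 CPM at 12 °C, 45.9 CPM at 22 °C and 66.9 and 79.5 CPM at 27 °C in BdELF3-ox, against 31.7, 96.5 and 109 CPM in ELF3-ox. BdELF3-ox was lower at every temperature, while in both lines the level was higher at each warmer step. Col-0 had 93.2 CPM at 22 °C and 106 and 103 CPM at 27 °C, near ELF3-ox, and elf3-1 had 53.0 and 78.7 CPM, near BdELF3-ox. At 12 °C and 22 °C BdELF3-ox was the lowest of all libraries of that temperature, and at 27 °C its libraries ranked 1 and 4 of 19. The fitted difference was -0.78 ± 0.16 (SE; 95% interval -1.12 to -0.44; edgeR adjusted p = 0.58). DESeq2 and the fit without the title number term called it, with adjusted p of 0.0497 and 0.0365.

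**Figure D3:**
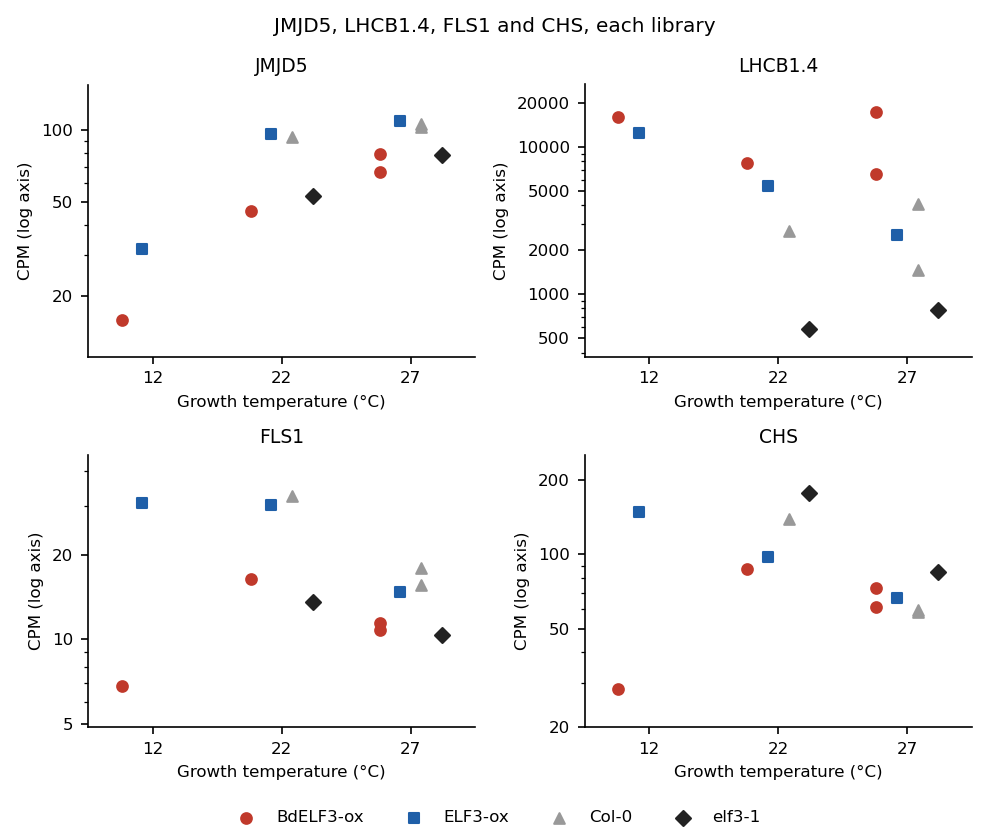
CPM (log axes) of JMJD5, LHCB1.4, FLS1 and CHS in each library at 12, 22 and 27 °C, with BdELF3-ox (red circles), ELF3-ox (blue squares), Col-0 (grey triangles) and elf3-1 (black diamonds); each point is 1 library. BdELF3-ox is below ELF3-ox for JMJD5 at every temperature and above it for LHCB1.4, and for FLS1 and CHS the gap is widest at 12 °C.

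Of 12 evening clock genes, 5 were higher in BdELF3-ox in 4 of 4 pairs, beside 7.73% of all loci. A further 2, ELF3 and BOA, were lower in 4 of 4 pairs, beside 8%. None passed the test. The list shares LUX, BOA, GI, TOC1 and ELF4 with the evening complex targets, and LUX is among the 5 higher. PRR5, an evening repressor, had 9.07, 5.11, 3.94 and 6.09 CPM in BdELF3-ox, against 2.97, 2.88 and 2.00 CPM in ELF3-ox (1.01 ± 0.34, SE; edgeR adjusted p = 1). CHE, a repressor of CCA1, had 75.7, 122, 165 and 149 CPM against 53.9, 77.0 and 73.9 CPM (0.54 ± 0.18). FKF1, a blue light receptor that promotes flowering, had 7.38, 9.62, 11 and 10.9 CPM against 3.72, 7.98 and 9.68 CPM (0.60 ± 0.21). Of 13 morning genes, a list that shares PRR7, LNK1, LNK3 and LNK4 with the targets, none was called either. Their median difference was 0.07. The first genes of the morning loop, CCA1 and LHY, were below 4 CPM in all 7 libraries.

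Of 22 measured PIF and auxin growth genes, a list that holds PIF4, PIF5 and other PIFs themselves, none passed the test. Their median difference over temperatures was 0.11, and 4 of 22, PIF5 among them, were higher in BdELF3-ox in 4 of 4 pairs, beside 7.73% of all loci, while 0 were lower, beside 8%. EXPA8, an expansin that loosens cell walls, had 7.11, 17.7, 28.5 and 26.1 CPM in BdELF3-ox, against 5.78, 12.8 and 21.2 CPM in ELF3-ox, and was higher at the warmer temperatures in both lines. IAA29, an auxin-induced repressor, had 4.40, 2.97, 6.14 and 8.88 CPM against 3.97, 2.78 and 3.38 CPM. For these genes, as for gibberellin (13 measured), light signalling (11) and flowering genes (20), a count of 0 calls does not show that the lines are alike: the 95% interval of PIF4 alone runs to 1.17.

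Light harvesting genes of the photosystem antennae differed by member. LHCB1.4, an antenna protein of photosystem II, had 15963, 7764, 6497 and 17217 CPM in BdELF3-ox, against 12379, 5435 and 2502 CPM in ELF3-ox, with Col-0 at 1468 to 4080 CPM and elf3-1 at 580 and 774 CPM. BdELF3-ox was above ELF3-ox at each temperature (1.27 ± 0.31, SE; edgeR adjusted p = 0.73). The LHCB1 genes are near-identical copies whose reads the counting can split, so single members are uncertain. Summed over 22 members of the list, the level was 111260 CPM at 12 °C, 67716 CPM at 22 °C and 45231 and 69178 CPM at 27 °C in BdELF3-ox, against 112130, 64011 and 30003 CPM in ELF3-ox. The sums were thus alike at 12 °C and 22 °C and apart at 27 °C, where the BdELF3-ox replicates also differed from each other. In the warm response all 22 had a difference above 0 (median 0.64, beside 0.01 over all loci), and 18 of 22 did with 27 °C set against 22 °C alone (median 0.41). In the same warm response 11 of 13 root markers (median 0.77) and 13 of 15 iron uptake genes (median 0.42) were also above 0; their part was not tested. None of the 22 passed a test.

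At 12 °C, where both libraries share a title number, 1 gene was called higher in BdELF3-ox and 1 lower (each 0.00512% of loci tested), and 964 had an unadjusted p under 0.05. Each line has 1 library there, which the fit matches exactly, so the spread comes from the other libraries. That spread is their departure from the added terms, and it is not a spread of repeat libraries at 12 °C. AT2G15220 had 20.2 CPM in BdELF3-ox and 2.97 CPM in ELF3-ox at 12 °C (2.76 ± 0.39, SE; edgeR adjusted p = 0.00848); at 22 °C and 27 °C it had 8.67, 7.53 and 6.52 CPM in BdELF3-ox and 8.09 and 8.91 CPM in ELF3-ox. AT3G16670 had 1.49 CPM in BdELF3-ox and 21.8 CPM in ELF3-ox at 12 °C (-3.86 ± 0.38; edgeR adjusted p = 6.18e-05), and 8.32, 0.926 and 2.11 CPM against 10.9 and 2.84 CPM in the warmer libraries. For both, the lines were within 2-fold at 22 °C. DESeq2 called 17 loci at 12 °C, 12 higher and 5 lower. With BdELF3-ox 27 °C replicate 2 in the fit, only AT3G16670 kept its call.

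Flavonoid genes were lower in BdELF3-ox at 12 °C: all 13 measured members had a fitted difference below 0, with a median of -1.50 beside 0.00 over all loci, and none passed edgeR's test. CHS, the enzyme that opens the pathway, had 28.4 CPM in BdELF3-ox and 149 CPM in ELF3-ox at 12 °C (-2.39 ± 0.57, SE; edgeR adjusted p = 0.34), but 87.0 CPM and 97.6 CPM at 22 °C. FLS1, which makes flavonols, had 6.84 CPM and 30.8 CPM at 12 °C (-2.17 ± 0.43; edgeR adjusted p = 0.14), and 16.5 CPM and 30.3 CPM at 22 °C. F3H, the step between them, had 20.4 CPM and 51.2 CPM at 12 °C (-1.33 ± 0.45; edgeR adjusted p = 0.85), and 15.0 CPM and 34.9 CPM at 22 °C. Summed over the list, BdELF3-ox had 94.5, 143, 117 and 114 CPM at 12, 22 and 27 °C, against 300, 194 and 122 CPM in ELF3-ox. DESeq2 called CHS and FLS1 lower at 12 °C, with adjusted p of 0.0188 and 0.00607.

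Genes of sugar starvation and darkness went the other way at 12 °C: 8 of 9 were above 0, with a median of 0.90, and none passed the test. DIN6, an asparagine synthetase that rises in the dark, had 555 CPM in BdELF3-ox and 191 CPM in ELF3-ox at 12 °C, and 321 CPM and 314 CPM at 22 °C. BZIP1, a factor of the starvation response, had 127 CPM and 56.3 CPM at 12 °C (1.17 ± 0.33, SE; edgeR adjusted p = 0.57), and 104 CPM and 94.3 CPM at 22 °C. CO, the day-length regulator of flowering, had 0.880 CPM and 5.78 CPM at 12 °C (-2.70 ± 0.51; edgeR adjusted p = 0.14), and 1.90 CPM and 2.43 CPM at 22 °C. Several of these genes follow the time of day; the hour of harvest of the 12 °C libraries is not given in the labels, and its part in these values was not tested. Of 14 measured cold response genes, 14 were higher at 12 °C than at 22 °C in BdELF3-ox and 12 in ELF3-ox, by unequal amounts. At least 2-fold higher were 10 in BdELF3-ox and 11 in ELF3-ox, beside 920 and 1099 of the 12784 loci of at least 5 CPM. In both lines the libraries of these 2 temperatures differ in title number. COR15A, a chloroplast protein of cold acclimation, had 230 CPM in BdELF3-ox and 494 CPM in ELF3-ox at 12 °C, and 13 CPM and 9.10 CPM at 22 °C. The median difference between the lines of 14 measured members at 12 °C was -0.25.

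**Figure D4:**
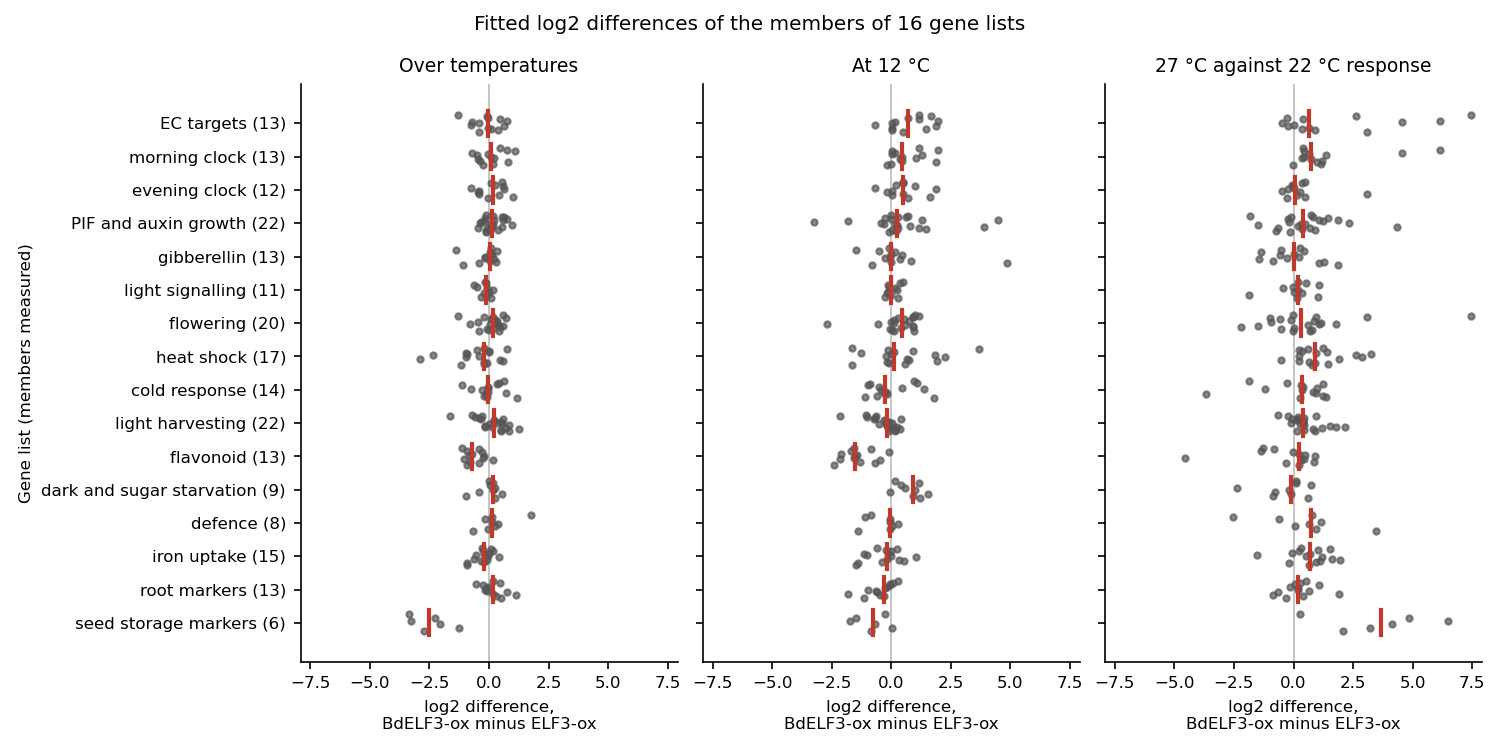
Fitted log2 differences (BdELF3-ox minus ELF3-ox) of the measured members of 16 gene lists over temperatures, at 12 °C, and in the 27 °C against 22 °C response with terms of their own for 12 °C; grey points are genes and red bars are list medians. At 12 °C the flavonoid median is -1.50 and that of dark and sugar starvation is 0.90, and no gene shown passed the test in any panel.

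The warm response was compared in a fit in which each line has a 27 °C term of its own; the term sets the line difference at 27 °C against that at the lower temperatures. No locus was called in either direction (background 0%), with a smallest edgeR adjusted p of 0.635 while 1100 loci stayed under 0.05 before adjustment; DESeq2 called 1. With 12 °C terms added, so that 27 °C stands against 22 °C alone, there were again 0 calls, and 754 loci stayed under 0.05 before adjustment. The locus DESeq2 called was FBA5, an aldolase of sugar metabolism, which had 174 CPM at 22 °C and 251 and 339 CPM at 27 °C in BdELF3-ox, against 211 and 96.3 CPM in ELF3-ox (1.71 ± 0.36, SE; edgeR adjusted p = 0.63; DESeq2 adjusted p = 0.0302). It was thus higher at 27 °C in BdELF3-ox and lower at 27 °C in ELF3-ox.

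The summed level of heat shock genes was higher at 27 °C than at 22 °C in both lines, from unequal levels at 22 °C. The sum of 17 measured members was 128 CPM at 22 °C and 282 and 324 CPM at 27 °C in BdELF3-ox, against 239 and 318 CPM in ELF3-ox; Col-0 had 111 CPM at 22 °C and 240 and 203 CPM at 27 °C. The lines were thus close at 27 °C and apart at 22 °C, where ELF3-ox stood above Col-0. The seed storage sum at 22 °C was also higher in ELF3-ox, with 1.90 CPM in BdELF3-ox, 18.3 CPM in ELF3-ox and 4.89 CPM in Col-0, and in the response of 27 °C against 22 °C alone all 6 seed storage genes had a difference above 0 (median 3.67). Its part in the heat shock values was not tested. HSP70-4, an inducible chaperone, had 26 CPM at 22 °C and 94.8 and 133 CPM at 27 °C in BdELF3-ox, against 81.6 and 120 CPM in ELF3-ox. With 27 °C set against 22 °C alone, 16 of 17 members had a difference above 0, with a median of 0.91 beside 0.03 over all loci, and none passed the test.

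Across the 12784 loci of at least 5 CPM, the 27 °C minus 22 °C difference of BdELF3-ox replicate 1 and that of ELF3-ox, which share no library, had a Pearson correlation of 0.25 and a Spearman correlation of 0.25, as a description across loci of 2 library pairs. At least 2-fold higher at 27 °C were 200 loci in BdELF3-ox and 373 in ELF3-ox, of which 46 were the same, 23% of the first list and 12.3% of the second. At least 2-fold lower were 300 and 232 loci, with 53 in both, 17.7% and 22.8%. The background of each share is the other line's count among all loci. For the higher loci, 23% stands beside 373 of 12784 and 12.3% beside 200 of 12784. For the lower loci, 17.7% stands beside 232 of 12784 and 22.8% beside 300 of 12784, so each overlap was above its background. The shared lower loci included COR15A, COR15B and RD29A of cold acclimation and LHCB1.1, and the shared higher ones included MBF1C, a heat stress coactivator; these were chosen after their values were seen.

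**Figure D5:**
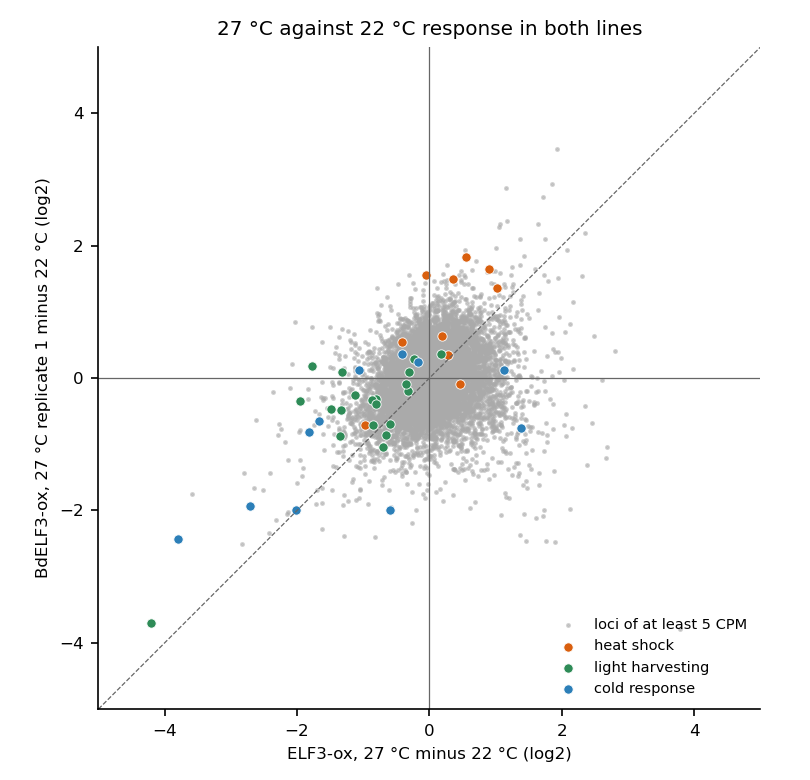
log2 difference between 27 °C and 22 °C in BdELF3-ox replicate 1 (vertical axis) against ELF3-ox (horizontal axis), on log2(CPM + 1); each point is 1 locus with a mean of at least 5 CPM, with 3 gene lists coloured and the dashed line marking equal responses. Of the plotted genes, 9 of 10 heat shock genes and 8 of 11 cold response genes lie above the dashed line. Of the 11 cold response genes, 6 are below 0 in both lines. The shares of all plotted loci in these positions were not counted.

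The deposited ChIP peak lists of the same lines, from seedlings moved to 27 °C for 2 h where that temperature is given, were read for the same genes, as ranks within each list, since depth and tag differ between lists. Of 14 evening complex targets, 12 had a peak among the 2000 strongest within 1000 bp in BdELF3-ox at 22 °C and 11 at 27 °C, against 11 in ELF3-ox at 22 °C and 9 and 7 in its lists at 27 °C. Among all tested loci with a position the share was 15.2% and 12.6% in the BdELF3-ox lists and 5.91%, 6.34% and 5.64% in the ELF3-ox lists. In both input lists the number was 0 of 14, beside 9.03% and 9.44% of all tested loci with a position. For 14 genes, 0 lies close to those shares. In the BdELF3-ox list at 22 °C the best peak at PRR7 ranked 2 and that at GI ranked 4, and PIF5 ranked 15 and PIF4 ranked 20. In the ELF3-ox list at 22 °C GI ranked 5, BBX28 ranked 21, PRR7 ranked 245 and PIF4 ranked 289.

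The same lists were read at genes with line differences. JMJD5 had a peak at ranks 552, 918 and 951 in the ELF3-ox lists, within the 2000 strongest, and at ranks 7156 and 23022 in the BdELF3-ox lists, outside them. The lists differ in length, with 27611, 30418 and 38934 nuclear peaks for ELF3-ox and 28591 and 80971 for BdELF3-ox. Low ranks are therefore not on the same scale between lists. In the lists of ELF3pro::ELF3-MYC elf3-1 at 17 °C, a tagged ELF3 under the ELF3 promoter, JMJD5 ranked 40891 of 43412 and 15291 of 22815, also outside the 2000 strongest. The ELF3-ox peak at JMJD5 was thus not among the strongest in those other ELF3 lists. BOA had none among the 2000 strongest in any list of the overexpressors. LHCB1.4 ranked 9 and 12 in the BdELF3-ox lists, and 88, 6457 and 828 in the ELF3-ox lists. LHCB1.5 ranked 9 and 12, and 88, 8065 and 828, in the same lists, so these peaks cannot be assigned to LHCB1.4 alone. TBL4 ranked 5294 and 446 in the BdELF3-ox lists, and 6535 and 2121 in those ELF3-ox lists that hold a peak there. At TBL4 only the BdELF3-ox list at 27 °C thus had a peak among the 2000 strongest. Neither gene called at 12 °C had a peak among the 2000 strongest in any of the 5 lists of the overexpressors. No ChIP at 12 °C was used here. The lists of the overexpressors stand for 1 sample each (2 for ELF3-ox at 27 °C), so a difference in rank between lines is a description.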

How the data were processed

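RNA was measured by sequencing of transcript ends from whole seedlings. The authors deposited raw counts per gene for each library; per the submitters' processing notes reads were aligned with STAR to TAIR10, and the sources used here do not name the counting program. Reads assigned to no gene (4.84% to 10.4% of each of the 7 libraries) were left out. The deposited ChIP peak lists, called with MACS2 after Bowtie2 alignment per the submitters' processing notes, give per peak a fold enrichment (ratio) and a −log10 p-value by the authors; peaks were ranked by that p-value, with organelle peaks and repeated intervals removed. Depth behind the peaks is unknown. Gene positions and symbols came from the RefSeq table of TAIR10.1, taken as equal to TAIR10 for nuclear genes.

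Loci reaching 1 CPM in 3 or more libraries were fitted with edgeR 4.0.16 (R 4.3.3; quasi-likelihood, TMM) over 37 libraries of 16 lines, with terms for line, temperature and title number, by scripts tested on simulated data; residual degrees of freedom were 16, 14 and 12. DESeq2 1.42.0 was an alternative. The fit borrows its spread from all lines, since most groups hold 1 library. Log2 differences of single pairs used a pseudocount of 1 CPM. Named genes were ELF3, ELF4, the evening complex targets, the 8 highest and 8 lowest called loci with a mean of at least 5 CPM, and of each other list the called members or the 1 of smallest p; TBL4, ADK, JMJD5, FBA5 and other list members were chosen after their values were seen. The libraries compared and the 16 gene lists were chosen with earlier results of these data known.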

Additional observations from a re-analysis of the deposited data

Results flagged for a closer look

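BdELF3-ox 27 °C replicate 2, which the comparisons leave out, had evening complex targets above the 3 Col-0 libraries and the 7 compared libraries for 10 of 13 measured targets (3559 of 19538 loci lay above them). In that library PIF4 had 103 CPM, PIF5 83.6 CPM, LUX 80.5 CPM, PRR7 27.9 CPM, LNK4 21.4 CPM, GI 13.2 CPM, BBX28 9.25 CPM, CDF5 4.89 CPM, LNK1 2.90 CPM and LNK3 1.99 CPM. The other BdELF3-ox libraries at 27 °C had 12.5 and 22.1 CPM of PIF4. Its root marker sum was 62.4 CPM, against 315 and 330 CPM in those libraries, and its TBL4 level of 3.63 CPM lay within the range of the other BdELF3-ox libraries. The part of tissue content in these target levels was not tested.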

How the results depend on the processing

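Over temperatures 0 calls became 2 with DESeq2, 2 without the title number term and 1 with the 7 libraries alone (TBL4, which met the filter only through BdELF3-ox, is 1 of the 2 without that term and the 1 here), and leaving out single libraries gave 0 to 3; the 3 were AT1G30870, EXT6 and MOP10, higher without the ELF3-ox 12 °C library. The warm response gave 1 call with DESeq2 and 0 with each library left out; without ELF3-ox 27 °C it has no value. At 12 °C 2 calls became 17 with DESeq2 and 1 with BdELF3-ox 27 °C replicate 2 added, where AT2G15220 had an adjusted p of 0.69 (3.29e-05 to 0.69 over alternatives; AT3G16670 1.23e-10 to 0.00612). At 12 °C no library was left out, since each line has 1. The cause was not tested. JMJD5 kept its direction in each fit (-0.90 to -0.63 with 1 library left out), as did BOA (-0.87 to -0.69) and FBA5 (1.63 to 1.80). Of 1184 values of named genes under alternatives, 17 reversed. Over temperatures FRO2 turned to 0.043 without the title number term, and with replicate 2 added GI turned to 0.22 and BBX28 to 0.48. With 1 library left out GI ran from -1.06 to 0.49, CDF5 from -2.93 to 0.28, LNK1 from -1.71 to 0.20, LUX from -0.14 to 0.83 and PIF5 from -0.69 to 0.34. In the warm response ELF3 turned to -0.61 without the title number term and -0.65 with the 7 libraries alone, LNK4 to 0.98 with replicate 2 added, and PIF5 to 0.35 with 27 °C against 22 °C alone, an alternative chosen after seeing the data. With 1 library left out the warm response of CDF5 ran from -1.78 to 6.27, that of BBX28 from -1.33 to 2.2 and that of PIF5 from -1.81 to 0.17. Leaving ELF3pro::BdELF3 27 °C out of the fit, also chosen after seeing the data, kept both calls at 12 °C. Replicates were not paired between the lines, because the labels give no replicate numbers that the groups share. The lines were matched by temperature, and the replicate numbers used here only name the libraries. Genes of a few CPM rest on few counts, and with 1 library per line at 12 °C and 22 °C small differences were not detectable.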

Other observations

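Some loci had opposite differences between 27 °C and 22 °C in the lines. Of 12784 loci of at least 5 CPM, 43 were at least 2-fold lower at 27 °C in BdELF3-ox replicate 1 and at least 2-fold higher at 27 °C in ELF3-ox, and 0 were the reverse. PSBO2, a subunit of the oxygen-evolving complex, had 335 CPM at 22 °C and 83.1 CPM at 27 °C in BdELF3-ox replicate 1, against 79.3 CPM and 266 CPM in ELF3-ox. BdELF3-ox 27 °C replicate 3 had 761 CPM. Over the 43 loci replicate 3 was at least 2-fold above replicate 1 for 28, beside 3.9% of all loci, and only 8 of the 43 were at least 2-fold lower at 27 °C when replicate 3 was used. The 43 loci were chosen on these values, so the counts are a description.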
